A study of Caenorhabditis elegans with 40 samples.

Results

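The genes described here were 10 oocyte and eggshell genes of Caenorhabditis elegans, taken by symbol from the RNA count table: cpg-1, cpg-2, cpg-3, egg-1, cbd-1, perm-2, perm-4, puf-5, rme-2 and chs-1. All 10 were among the 9532 genes of the table, and all 10 passed the filter on low counts that left 9416 genes for testing. Whole worms heterozygous for a null allele of a ribosomal protein gene, rpl-33(0)/+, rpl-5(0)/+, rps-10(0)/+ or rps-23(0)/+, were collected on day 4. Each null allele was kept over a balancer chromosome, mIn1 for rpl-33 and rpl-5, tmC20 for rps-10 and tmC5 for rps-23, and wild-type worms over the same balancer were collected on day 3 and on day 4. The labels give the mutants and the day 3 controls as fourth-stage larvae (L4), with no stage for the first rpl-33(0)/+ and rpl-5(0)/+ RNA replicates. They give the day 4 controls as pregravid adults, except the second RNA replicates of tmC20 and tmC5, which are labelled L4. The day 3 controls were therefore close in stage to the mutants and the day 4 controls close in time.

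Hermaphrodites of this species make sperm as larvae and switch to oocytes around the last moult. A growing oocyte takes up yolk through the receptor RME-2 and stores mRNAs under the control of RNA-binding proteins such as PUF-5. It also makes parts of the eggshell. The eggshell has an outer vitelline layer (CBD-1, PERM-2 and PERM-4) and a chitin layer made by the chitin synthase CHS-1. Inside these lies a layer of the chondroitin proteoglycans CPG-1 and CPG-2. EGG-1 is an oocyte surface protein needed for fertilization. CPG-3 is a further chondroitin proteoglycan.

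The RNA table held 20 columns, of which 17 were distinct. The rpl-33(0)/+ and rpl-5(0)/+ columns were identical in pairs. They were counted as 1 group of 2 libraries, called the rpl libraries below after their labels, so these mutants cannot be told apart in RNA. A tmC20 column was identical under day 3 and day 4 and entered no comparison, which left tmC20 with 1 library per age. The libraries held 1017787 to 2384186 counts. Levels are given in CPM, the counts of a gene scaled to a common library size. rps-10 was at 1078 and 1147 CPM in its own mutant and at 1382 to 1815 CPM in the tmC20 libraries. rps-23 was at 717 and 811 CPM in its own mutant and at 842 to 1196 CPM in the tmC5 libraries. In the rpl libraries rpl-5 was at 3600 and 5066 CPM and rpl-33 at 630 and 916 CPM, against 2909 and 3507 CPM and 683 and 820 CPM in mIn1 day 3, so their RNA gave no check of the labels of the rpl libraries.

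perm-2 and perm-4 are neighbours that point away from each other, with 1682 bases between their annotated starts and 0 annotated genes between them (WBcel235, Ensembl annotation). The 200 bases before the start are shown for 5 genes, because the perm pair behaved unlike the others in the rpl libraries. They were read from the RefSeq WBcel235 genome, 5′ to 3′ on the gene's strand. Capitals mark TTCCCGC or its reverse complement GCGGGAA, the core of an E2F site (the E2F protein EFL-1 is known for its part in oogenesis), TATAAA beginning 20 to 40 bases before the start, and TTTCAG ending at the start, the form of a splice acceptor.
cpg-1, chrIII:4489159-4489358, plus strand: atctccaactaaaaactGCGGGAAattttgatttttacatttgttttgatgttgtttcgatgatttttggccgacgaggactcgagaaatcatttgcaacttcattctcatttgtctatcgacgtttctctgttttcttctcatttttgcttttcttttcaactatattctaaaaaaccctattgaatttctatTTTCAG
egg-1, chrIII:5727980-5728179, plus strand: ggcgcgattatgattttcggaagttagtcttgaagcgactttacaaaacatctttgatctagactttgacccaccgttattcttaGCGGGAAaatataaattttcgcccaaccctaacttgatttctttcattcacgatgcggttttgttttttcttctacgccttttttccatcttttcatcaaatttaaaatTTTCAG
cbd-1, chrIV:11372791-11372990, plus strand: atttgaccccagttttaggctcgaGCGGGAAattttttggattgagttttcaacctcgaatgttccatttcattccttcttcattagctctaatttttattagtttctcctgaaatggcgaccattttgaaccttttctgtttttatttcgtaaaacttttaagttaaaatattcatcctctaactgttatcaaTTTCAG
perm-2, chrIV:1126590-1126789, plus strand: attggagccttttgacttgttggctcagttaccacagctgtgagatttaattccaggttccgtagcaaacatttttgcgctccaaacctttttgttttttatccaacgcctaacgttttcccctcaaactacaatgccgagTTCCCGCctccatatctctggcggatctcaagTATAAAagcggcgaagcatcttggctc
perm-4, chrIV:1125108-1125307, minus strand: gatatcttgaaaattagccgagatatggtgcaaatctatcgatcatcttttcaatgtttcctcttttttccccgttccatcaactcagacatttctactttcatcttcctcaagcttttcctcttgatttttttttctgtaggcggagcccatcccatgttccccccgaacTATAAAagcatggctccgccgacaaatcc

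TTCCCGC stood on either strand in the windows of 5 of the 10 genes (cpg-1, egg-1, cbd-1, perm-2 and puf-5), against 2.19% of 19973 protein-coding genes. TATAAA at 20 to 40 bases stood before perm-2, at 27 bases, and perm-4, at 29 bases, and before 4.67% of all genes. TTTCAG ended at the start of cpg-1, cpg-2, egg-1 and cbd-1 and of 12.3% of all genes. It was absent there from perm-2 and perm-4, and also from cpg-3, puf-5, rme-2 and chs-1, so its absence did not set the perm pair apart. The windows shown beside the perm pair all have it and do not stand for the other genes. CACGTG was in 0 of the 10 windows and in 4.22% of all windows, and TGATAA was in 1 (cbd-1) and in 22.6%. A match of letters is a description and not a site. In the WBcel235 annotation all 10 are protein-coding. On chromosome III lie cpg-1 at chrIII:4489359-4491392, cpg-2 at chrIII:7102092-7103990 and egg-1 at chrIII:5728180-5730159. On chromosome IV lie cbd-1 at chrIV:11372991-11377627, perm-2 at chrIV:1126790-1128865, perm-4 at chrIV:1121494-1125107 and rme-2 at chrIV:5470026-5473174. puf-5 lies at chrII:8575541-8577787.

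GLD-1 is an RNA-binding protein that holds back the translation of oocyte mRNAs, rme-2 among them, and its preferred hexamer is TACTAA or TACTCA in DNA letters. The hexamer stood within 100 bases after the stop codon of 4 of the 10 genes and of 4.52% of all genes. The sites are shown with the hexamer in capitals.
cpg-1, chrIII:4491273-4491302, plus strand: ctatcaaatgccTACTCAtcccagtgccat
egg-1, chrIII:5730024-5730051, plus strand: gatgttttaaTACTAAatcccactaaca
cbd-1, chrIV:11377408-11377437, plus strand: aatctttacatgTACTAActttattgcatt
rme-2, chrIV:5473092-5473121, plus strand: ctactacaaaatTACTAAatcagatgtctg
TGTANAT, the core bound by PUF proteins, was in 0 of the 10 windows after the stop and in 10.7% of all such windows.

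In mIn1 and tmC20 wild type the genes were lower on day 3 than on day 4. Per kilobase of transcript, the mean of the 3 mIn1 and tmC20 day 4 libraries was 1184 CPM for cpg-1, 706 for cpg-2, 498 for cbd-1, 467 for perm-4 and 339 for perm-2. It was 264 CPM per kilobase for cpg-3, 255 for puf-5, 249 for rme-2, 158 for egg-1 and 112 for chs-1. cpg-1, cpg-2, cbd-1, perm-4 and perm-2 stood above the other 5 genes in each of these 3 libraries, while cpg-3, puf-5 and rme-2 changed order between them.

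All 10 genes were higher in both mIn1 day 4 libraries than in either mIn1 day 3 library, as were 34.6% of all genes. cpg-1 was at 40.9 and 286 CPM on day 3 and at 1924 and 2157 CPM on day 4. puf-5 was at 11.5 and 44.5 CPM on day 3 and at 539 and 475 CPM on day 4. The day 3 libraries differed from each other by several fold, the second being the higher for each gene. The sum of the 10 genes was 276 and 1198 CPM on day 3 and 7897 and 8478 CPM on day 4, an 11.1-fold difference of the means. With all 17 libraries in 1 fit, 0 of the 10 genes passed, beside 0.0531% of all 9416 genes (edgeR's quasi-likelihood test, Benjamini-Hochberg adjusted p below 0.05). An unadjusted p below 0.05 was found for all 10 and for 2710 of all 9416 genes, and DESeq2 called 4 of the 10.

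The count passing in edgeR was 10 without either tmC5 day 3 library and 2 without either tmC5 day 4 library. The tmC5 replicates lay far apart. cpg-1 was at 2750 and 104 CPM in the tmC5 day 3 libraries and at 183 and 2657 CPM in the tmC5 day 4 libraries. Within each age 1 library was high and 1 low, by 11.6- to 44.5-fold on day 3 and by 9.03- to 22.5-fold on day 4 over the 10 genes. Thus 1 tmC5 library of each age lay with the other age, and the groups are given as labelled. Each comparison is therefore also given from a fit without the tmC5 and rps-23 libraries, an alternative chosen after seeing the data and called the smaller fit. In it all 10 genes rose from mIn1 day 3 to day 4 (20.1% of all 9331 genes were called higher), by 3.01 (SE 0.37) for chs-1 to 4.33 (SE 0.44) for puf-5 on the log2 scale, with adjusted p from edgeR between 1.28e-06 and 9.06e-05.

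tmC20 wild type had 1 usable library per age. cpg-1 was at 656 CPM on day 3 and 2631 CPM on day 4, and rme-2 at 202 and 778 CPM. The column found under both days was at 673 CPM for cpg-1 and 190 CPM for rme-2, near day 3. With all libraries 0 of the 10 genes were called between the ages by edgeR (0% of all genes), 0 at an unadjusted p below 0.05 and 0 by DESeq2. Without the tmC5 and rps-23 libraries 9 rose (7.53% of all genes were called higher), and cpg-1 did not pass (log2 difference 2.09, SE 0.73, adjusted p = 0.056 from edgeR). Each tmC20 library is there assumed to vary as the replicated groups do.

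**Figure D1:**
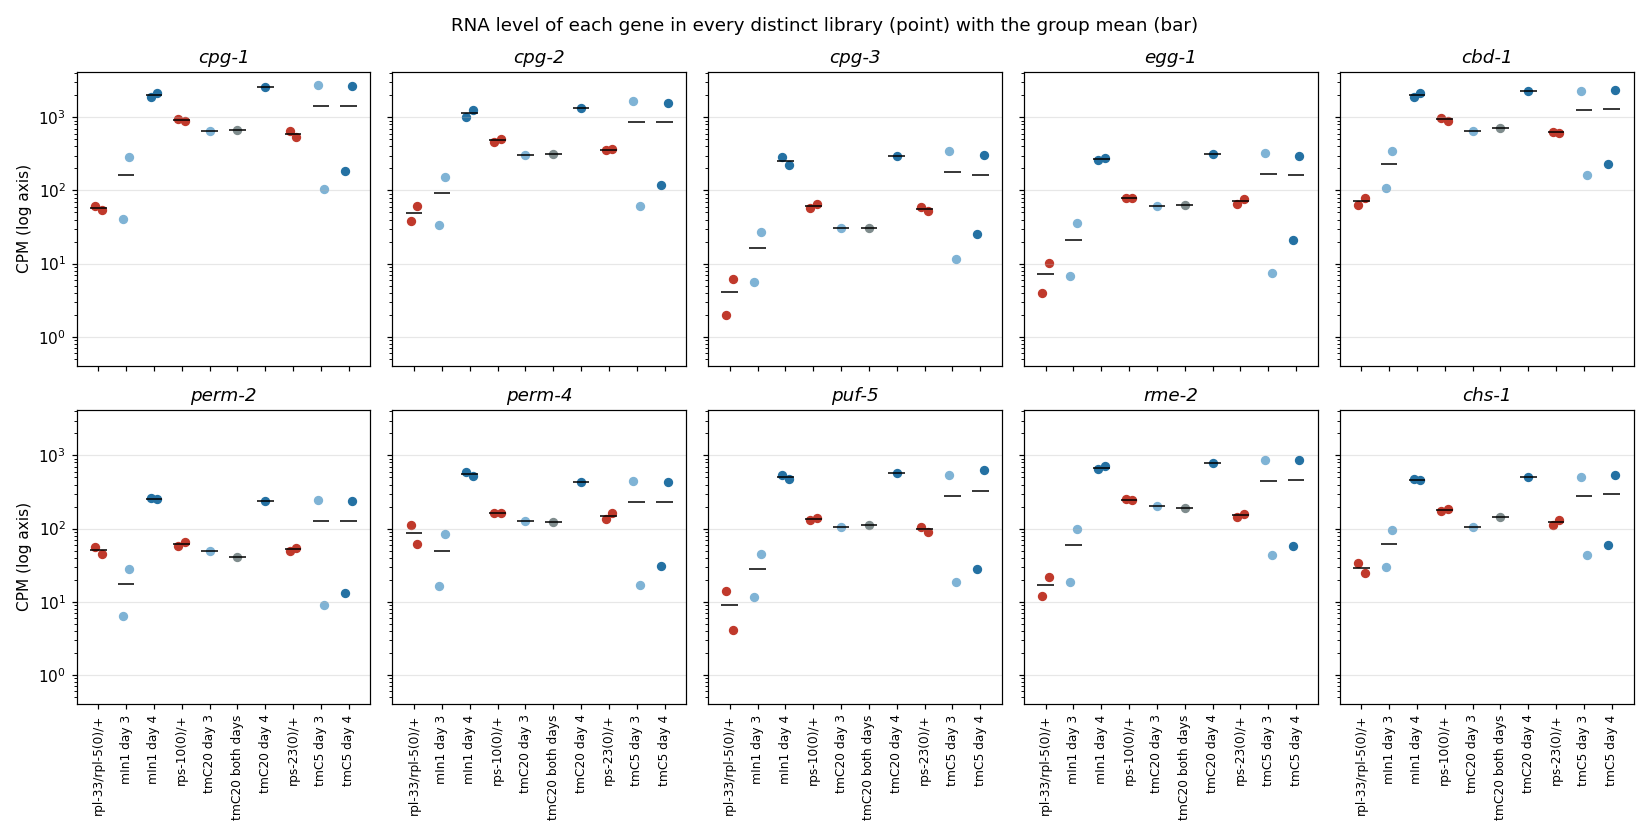
CPM of each of the 10 genes (log axis) in the 17 distinct RNA libraries, as points by group (red, mutants; light blue, wild type day 3; dark blue, wild type day 4; grey, the tmC20 column under both days), with bars at group means. cpg-1 lies at 54.8 and 62.1 CPM in the rpl libraries and at 1924 and 2157 CPM in mIn1 day 4, and the tmC5 groups each hold 1 high and 1 low library.

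In the rpl libraries every one of the 10 genes was lower than in both mIn1 day 4 libraries, with no overlap, as were 33.9% of all genes. The sum of the 10 genes was 395 and 370 CPM, 21.4-fold under the mIn1 day 4 mean. In a bulk sample of whole worms, fewer oocytes and less RNA per oocyte cannot be told apart. With all libraries 3 genes fell (3.92% of all genes were called lower): cpg-3, cbd-1 and rme-2. The count was 0 without any 1 rpl, mIn1, rps-10(0)/+ or rps-23(0)/+ library and 8 without any 1 tmC5 library. The median log2 difference of the 10 genes was -4.97, against 0.05 over all genes tested. Without the tmC5 and rps-23 libraries all 10 fell (21.7% of all genes were called lower).

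cpg-3, which like chs-1 lies on chromosome I, showed the widest difference, at 1.97 and 6.21 CPM in the rpl libraries and 291 and 222 CPM in mIn1 day 4. It fell by 5.96 (SE 1.68, adjusted p = 0.046) on the log2 scale in the edgeR fit of all libraries, and its log2 difference was -5.98 (SE 0.57, adjusted p = 5.06e-07) without the tmC5 and rps-23 libraries. Of the 30-base windows of its transcript 13.8% also occur in other genes, Y54G2A.36 among them, so its counts could be shared. cbd-1, a chitin-binding vitelline layer protein, was at 63.1 and 79.7 CPM against 1880 and 2125 CPM. It fell by 4.81 (SE 1.27, adjusted p = 0.04), and its log2 difference in the smaller edgeR fit was -4.83 (SE 0.44, adjusted p = 3.46e-07).

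The yolk receptor gene rme-2 was at 11.8 and 21.7 CPM in the rpl libraries and 651 and 712 CPM in mIn1 day 4. It fell by 5.34 (SE 1.52, adjusted p = 0.048, edgeR) with all libraries. puf-5 stood at 13.8 and 4.14 CPM and egg-1 at 3.94 and 10.3 CPM in the rpl libraries. In mIn1 day 4 puf-5 was at 539 and 475 CPM and egg-1 at 257 and 282 CPM. Neither passed with all libraries (adjusted p = 0.0501 and 0.06, edgeR), and both fell without the tmC5 and rps-23 libraries, puf-5 with a log2 difference of -5.82 (SE 0.52) and egg-1 with -5.26 (SE 0.54). chs-1 was at 33.5 and 24.8 CPM against 472 and 463 CPM, with a log2 difference of -4.02 (SE 0.41) in the same fit.

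perm-2 and perm-4 differed least from day 4. perm-2 was at 56.2 and 45.5 CPM in the rpl libraries and 262 and 251 CPM in mIn1 day 4. perm-4 was at 110 and 62.1 CPM against 597 and 522 CPM. Neither passed with all libraries (adjusted p = 0.21 and 0.16, edgeR), and both fell without the tmC5 and rps-23 libraries, perm-2 by 2.35 (SE 0.36) and perm-4 by 2.72 (SE 0.46) on the log2 scale.

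Against mIn1 day 3 the rpl libraries were near the lower day 3 library for most of the 10 genes. 8 genes overlapped, cbd-1 lay below both day 3 libraries, and perm-2 lay above both. Of all genes 48.8% did not overlap in one direction or the other. perm-2 was at 6.40 and 28.0 CPM on day 3 and perm-4 at 16.6 and 83.3 CPM. With all libraries 0 of the 10 genes passed (0.648% of all genes were called), 0 had an unadjusted p below 0.05 and DESeq2 called 0. Without the tmC5 and rps-23 libraries edgeR called 2 (7.16% of all genes): perm-2 rose by 1.75 (SE 0.44, adjusted p = 0.022) and cbd-1 fell by 1.65 (SE 0.40, adjusted p = 0.019) on the log2 scale. perm-4 did not pass, with a log2 difference of 0.89 (SE 0.48). The other 7 genes had log2 differences between -0.85 (cpg-2) and -1.79 (cpg-3) and did not pass. The direction of 4 of these 7 rested on the second mIn1 day 3 library: without it the log2 difference, in the edgeR fit of the other libraries, was 0.53 for cpg-1, 0.57 for cpg-2, 0.069 for egg-1 and 0.00025 for chs-1.

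The proportion of the perm pair to the other genes set the rpl libraries apart. perm-2 and perm-4 together amounted to 72.8 and 40.9 CPM per 100 CPM of the other 8 genes in the rpl libraries. In the other 15 libraries that value ran from 5.72 to 12.2 with a median of 7.61, over wild type of either age and the other mutants. For perm-2 against cpg-1 it was 90.5 and 83.0 CPM per 100 CPM in the rpl libraries and 5.95 to 15.6 in the others. This proportion was noticed in the data and was not tested. perm-2 overlaps the antisense gene C44B12.6, and perm-4 overlaps no annotated gene. Of the others cpg-3 overlaps R06C7.6 and egg-1 overlaps B0244.9 in antisense, and chs-1 overlaps T25G3.3 on its own strand.

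**Figure D2:**
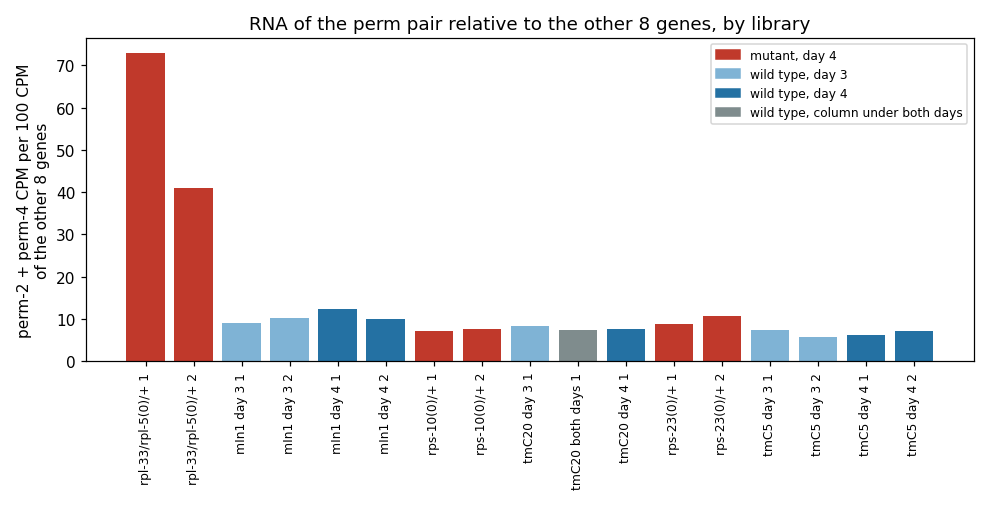
Summed CPM of perm-2 and perm-4 per 100 CPM of the other 8 genes in each of the 17 distinct RNA libraries (bars from 0, coloured by group as in the key). The rpl libraries reach 72.8 and 40.9, and the highest of the others reaches 12.2.

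In rps-10(0)/+ the genes were below wild type day 4 and a little above wild type day 3. All 10 genes were lower in both rps-10(0)/+ libraries than in the tmC20 day 4 library (so were 42.6% of all genes) and higher than in the day 3 library (so were 39.7%). cpg-1 was at 961 and 902 CPM, cbd-1 at 985 and 885 CPM, and rme-2 at 250 and 246 CPM. The tmC20 day 3 and day 4 libraries held 656 and 2631 CPM of cpg-1, 652 and 2300 CPM of cbd-1, and 202 and 778 CPM of rme-2. The mean sum of the 10 genes was 2.87-fold under tmC20 day 4 and 1.43-fold over tmC20 day 3.

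With all libraries 0 of the 10 genes were called against tmC20 day 4 (0.0743% of all genes) and 0 against day 3 (0.0425%) by edgeR. In both comparisons 0 genes had an unadjusted p below 0.05 and DESeq2 called 0. Without the tmC5 and rps-23 libraries 9 fell against day 4 (9.38% of all genes were called lower), from cbd-1 with -1.37 (SE 0.43) to cpg-3 with -2.33 (SE 0.41). cpg-1 missed the threshold at -1.57 (SE 0.58, adjusted p = 0.063, edgeR). Against day 3 that fit called 0 of the 10 (0.364% of all genes) and 0 at an unadjusted p below 0.05, with log2 differences from 0.31 (rme-2, SE 0.54) to 1.02 (cpg-3, SE 0.55).

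**Figure D3:**
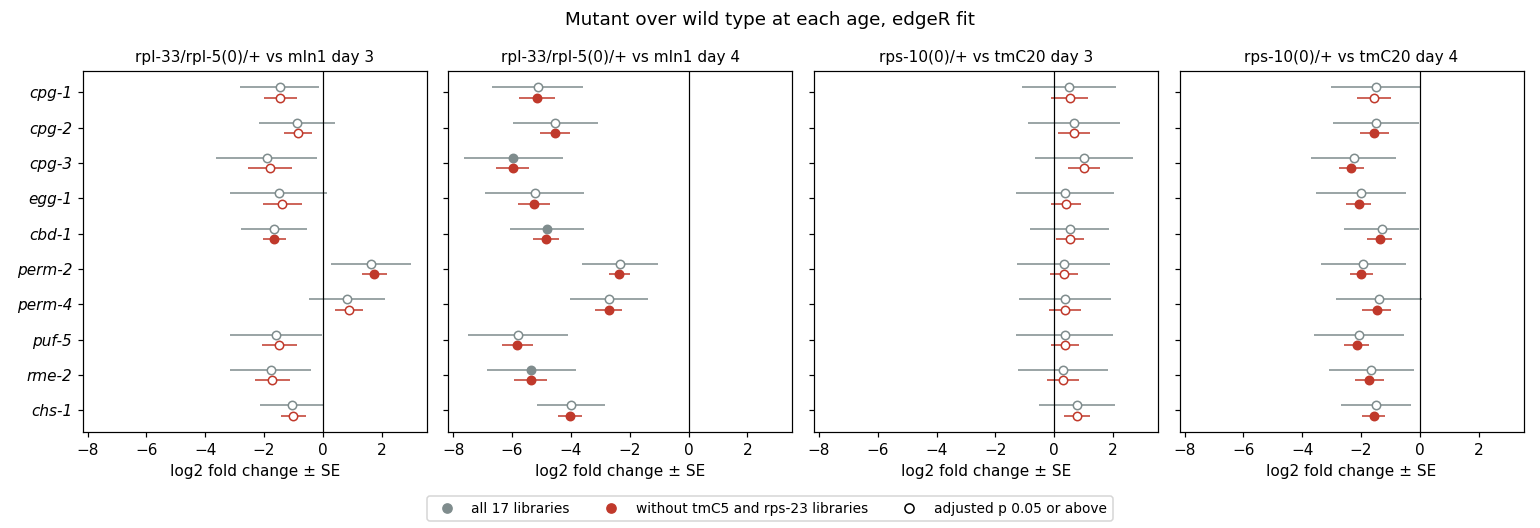
Log2 fold change with its SE for each gene, the rpl libraries and rps-10(0)/+ against wild type of day 3 and day 4, from edgeR fits of all 17 libraries (grey) and without the tmC5 and rps-23 libraries (red), filled where the adjusted p was below 0.05. Against mIn1 day 3 the perm-2 and perm-4 values lie right of 0 (1.75 and 0.89 in red) and the other 8 left of it.

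rps-23(0)/+ lay between the high and the low tmC5 libraries for all 10 genes. cpg-1 was at 641 and 545 CPM, cpg-2 at 354 and 364 CPM, and puf-5 at 104 and 89.8 CPM in rps-23(0)/+. The sum of the 10 genes was 2299 and 2247 CPM, beside 2404 CPM in the tmC20 column of both days. With 1 high and 1 low tmC5 library at each age, edgeR called 0 of the 10 against tmC5 day 4 (0.393% of all genes) and 0 against day 3 (0.287%), with 0 at an unadjusted p below 0.05 and 0 by DESeq2 in either. Between the tmC5 ages 0 were called (0% of all genes), again with 0 at an unadjusted p below 0.05 and 0 by DESeq2. These RNA libraries could not show where rps-23(0)/+ stood between the ages.

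Averaged over the mutants, 8 of the 10 genes fell against day 4 wild type in the edgeR fit of all libraries (9.88% of all genes were called lower), and perm-2 and perm-4 did not pass (adjusted p = 0.095 and 0.14). The log2 differences ran from -1.58 (perm-4) to -3.26 (cpg-3). This count fell to 0 without any 1 rpl, rps-10(0)/+, rps-23(0)/+ or mIn1 day 4 library, and without the high tmC5 day 4 library, and to 5 without either mIn1 day 3 library. Against day 3 wild type 0 passed (1.03% of all genes), 0 at an unadjusted p below 0.05 and 0 by DESeq2. Between day 4 and day 3 averaged over the balancers 0 passed (0.085% of all genes) and DESeq2 called 0. An unadjusted p below 0.05 was found for 6, beside 2545 of all 9416 genes. The count passing was 10 without the high tmC5 day 3 library and 8 without the low tmC5 day 4 library.

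The mutants were also compared with each other. With all libraries, a test of whether the 3 mutant groups differed in their change against day 4 called 0 of the 10 genes (0.138% of all genes), and 0 against day 3 (0.0106%), by edgeR, with 0 at an unadjusted p below 0.05 in either. DESeq2 was not run on this test. Without the tmC5 and rps-23 libraries, rps-10(0)/+ and the rpl libraries differed in their change against day 4 for 8 of the 10 genes (5.81% of all genes), with adjusted p between 0.0045 and 0.023. The exceptions were perm-2, with a difference of 0.36 on the log2 scale (adjusted p = 0.76), and perm-4, with 1.24 (adjusted p = 0.32). Against day 3, 0 of the 10 passed (2.24% of all genes), while 7 had an unadjusted p below 0.05. The number of all genes at that unadjusted p was not counted for this test.

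Related gene groups were read in the same edgeR fits. Of 19 oocyte RNA regulators, 9 fell in the rpl libraries against mIn1 day 4 with all libraries (3.92% of all genes were called lower). In the smaller fit 19 fell in the rpl libraries (21.7%), and 16 fell in rps-10(0)/+ against tmC20 day 4 (9.38%). With all libraries edgeR called 0 genes of this or any other list below in rps-10(0)/+ against tmC20 day 4, with 0 of the regulators at an unadjusted p below 0.05 and 0 called by DESeq2. cgh-1, a helicase of germ granules and the most abundant of them, was at 134 and 352 CPM in the rpl libraries and at 1627 and 1234 CPM in mIn1 day 4. All 6 vitellogenin (yolk) genes are expressed in the intestine and not in the gonad. In the smaller fit they fell in both comparisons (21.7% and 9.38% of all genes were called lower). With all libraries edgeR called 0 of the 6 in either comparison. In the rpl libraries 6 had an unadjusted p below 0.05, beside 3524 of all 9416 genes, and DESeq2 called 6. In rps-10(0)/+ both counts were 0, beside 1232 of all 9416 genes at an unadjusted p below 0.05. vit-6, the most abundant, had a log2 difference of -4.04 (SE 1.54, adjusted p = 0.09, edgeR) in the rpl libraries with all libraries. Their sum was 4557 to 6721 CPM in the rpl libraries, 1739 to 14417 CPM in mIn1 day 3 and 101416 to 105263 CPM in mIn1 day 4.

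Of 11 other eggshell and egg activation genes, 1 fell in the rpl libraries against mIn1 day 4 with all libraries (3.92% of all genes were called lower). It was mbk-2, a kinase of egg activation. Without the tmC5 and rps-23 libraries 8 of the 11 fell (21.7% of all genes). 1 rose in both fits: cpg-7, named after its values were seen. Of all genes 673 of 9416 were called higher with all libraries and 2253 of 9331 in the smaller fit. cpg-7 was at 62.087 and 30.001 CPM in the rpl libraries, the second near the mIn1 day 3 values of 24.7 and 22.3 CPM. In mIn1 day 4 it was at 6.51 and 2.35 CPM. In tmC20 wild type it was at 119 CPM on day 3 and 2.09 CPM on day 4, so a high level was also found in day 3 wild type. Its log2 difference in the rpl libraries against mIn1 day 4 in the smaller fit was 3.43 (SE 0.48). Against mIn1 day 3 it did not pass (0.96, SE 0.36). In rps-10(0)/+ against tmC20 day 4, 7 fell in the smaller fit (9.38% of all genes were called lower) and cpg-7 rose (13.5% were called higher). With all libraries 3 of the 11 had an unadjusted p below 0.05, beside 1232 of all 9416 genes, and DESeq2 called 1. Of 9 chondroitin synthesis genes, 1 fell in the rpl libraries with all libraries, sqv-5, the chondroitin synthase, beside 3.92% of all genes. Without the tmC5 and rps-23 libraries 6 of the 9 fell, beside 21.7% of all genes. In rps-10(0)/+ 2 of the 9 fell in the smaller fit, beside 9.38% of all genes. With all libraries 1 of the 9 had an unadjusted p below 0.05, beside 1232 of all 9416 genes, and DESeq2 called 0. The sum of these 9 genes was 275 to 304 CPM in the rpl libraries and 636 to 696 CPM in mIn1 day 4.

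Of 10 general germ line genes, 4 fell in the rpl libraries against mIn1 day 4 with all libraries (3.92% of all genes were called lower). Without the tmC5 and rps-23 libraries 8 of them fell (21.7%). Their sum was 697 and 1150 CPM in the rpl libraries, 1229 and 1244 CPM in mIn1 day 3, and 1680 and 2204 CPM in mIn1 day 4, a narrower range than that of the 10 oocyte and eggshell genes. Of 30 sperm genes, 10 fell in the rpl libraries against mIn1 day 4 with all libraries (3.92% of all genes) and 20 in the smaller fit (21.7%). In the smaller fit 6 rose in rps-10(0)/+ against tmC20 day 4 (13.5% of all genes were called higher). With all libraries 6 of the sperm genes had an unadjusted p below 0.05 in rps-10(0)/+, beside 1232 of all 9416 genes, and DESeq2 called 0. Sperm genes summed to 151 to 157 CPM in the rpl libraries, 93.8 to 219 CPM in mIn1 day 3 and 503 to 591 CPM in mIn1 day 4. They summed to 700 to 748 CPM in rps-10(0)/+, 851 CPM in tmC20 day 3 and 380 CPM in tmC20 day 4. Against day 3 the smaller fit called 0 of the 30 in the rpl libraries (7.16% of all genes) and 0 in rps-10(0)/+ (0.364%). Of 3 gonad sheath genes measured, 1 fell and 1 rose in the rpl libraries against mIn1 day 4 in the smaller fit. There 21.7% of all genes were called lower and 2253 of all 9331 higher. Of 12 early embryo genes only pes-10 was in the table. It was at 5.91 and 9.31 CPM in the rpl libraries, 31.6 and 32.98 CPM in mIn1 day 3 and 21.96 and 26.4 CPM in mIn1 day 4. In the smaller fit it was lower in the rpl libraries than at either age (adjusted p = 0.015 and 0.012, edgeR). It was at 0 CPM in tmC20 day 3, 4.87 CPM in tmC20 day 4, 0 and 0.996 CPM in rps-10(0)/+, and at most 10.4 CPM in tmC5. The level in mIn1 wild type was thus not found over the other balancers, and an effect of the balancer was not tested.

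The genes whose RNA followed the mean profile of the 10 most closely over the 17 libraries, among 7469 genes with a mean of at least 10 CPM, were C05C10.5 (r = 0.99), cpg-4 (0.989), F54E12.2 (0.988), mex-5 (0.987) and clec-87 (0.987). The points share balancers and ages, so r is a description. Over the 11 wild-type libraries alone, 2 of these 5 genes were again among the 5 closest. Of the 10 genes themselves, perm-2 (r = 0.887) and perm-4 (0.92) followed their own mean profile least over all libraries and the other 8 at 0.972 or above. Over wild-type libraries alone perm-2 reached 0.996 and perm-4 0.988.

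Ribosome footprints were few, with 1081 to 9637 counts per library, so they are given as counts with exact (Clopper-Pearson) 95% intervals, which cover counting error only. The Ribo-seq columns kept rpl-33(0)/+ and rpl-5(0)/+ apart. In the 6 wild-type day 4 libraries the 10 genes took 146 of 15937 counts, a share of 0.916% (0.774 to 1.08%). In the 6 day 3 libraries they took 22 of 19838 counts, 0.111% (0.0695 to 0.168%), and in the 8 mutant libraries 23 of 30234 counts, 0.0761% (0.0482 to 0.114%). The mutant and day 3 intervals overlapped, and both lay below that of day 4.

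The tmC5 footprint libraries followed their ages, unlike the tmC5 RNA libraries: the 10 genes had 0 and 3 counts on day 3 and 33 and 16 counts on day 4. cbd-1, with the most footprints of the 10 genes in the day 4 controls, had 31 counts there, 1 in the day 3 controls and 0 in the mutants. cpg-2 had 27, 1 and 0 counts, cpg-1 had 13, 1 and 0, and rme-2 had 20, 5 and 1. Taken as 3 counts of the total, the limit that a count of 0 over the 30234 mutant counts allows is 0.00992%.

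Footprints of the perm pair were present in the mutants and at both ages. perm-2 had 6 counts in the mutants, 4 in day 3 and 6 in day 4 controls, and perm-4 had 12, 8 and 17. Together they made 18 of the 23 counts in the mutants, 12 of the 22 in day 3 controls and 23 of the 146 in day 4 controls. In rpl-5(0)/+ they were 9 of 10 counts, in rpl-33(0)/+ 2 of 3, in rps-10(0)/+ 5 of 6 and in rps-23(0)/+ 2 of 4. In day 3 controls they were 5 of 12 in mIn1, 6 of 7 in tmC20 and 1 of 3 in tmC5. In footprints a high proportion of the pair was thus not particular to the rpl mutants. The share of the pair was 0.0595% (0.0353 to 0.0941%) in the mutants, 0.0605% (0.0313 to 0.106%) in day 3 and 0.144% (0.0915 to 0.216%) in day 4 controls.

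Set beside RNA, the other 8 genes had few footprints for their RNA in rps-10(0)/+ and in tmC20 day 3. In rps-10(0)/+ they held 0.311% of RNA counts and 1 of 6405 footprints, 0.0156% (0.000395 to 0.087%). In tmC20 day 3 they held 0.21% of RNA counts and 1 of 6291 footprints, 0.0159% (0.000402 to 0.0885%). Both intervals lay below the RNA share. In mIn1 and tmC20 day 4 wild type the shares were nearer to each other. They were 0.791% of RNA and 0.58% (0.431 to 0.764%) of footprints in mIn1, and 0.936% and 0.752% (0.508 to 1.07%) in tmC20. In tmC5 day 4 the 8 genes held 0.674% of RNA and 1.29% (0.937 to 1.74%) of footprints. In tmC5 day 3 they held 0.485% and 0.0328% (0.00397 to 0.118%). Each tmC5 RNA share pools 1 high and 1 low library. In mIn1 day 3 the 8 genes held 0.0533% of RNA counts and 0.094% (0.0378 to 0.194%) of footprints. All 7 of these footprints were in the second of its libraries (7 of 4553), and the first held 0 of 2895.

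The perm pair went the other way in the same libraries. In rps-10(0)/+ it held 0.0228% of RNA counts and 0.0781% (0.0254 to 0.182%) of footprints, and in tmC20 day 3 0.0175% and 0.0954% (0.035 to 0.207%). Both RNA shares lay below the footprint interval. So did that of the pair in mIn1 day 3, with 0.00527% of RNA and 0.0671% (0.0218 to 0.157%) of footprints. In the rpl mutants pooled it had 0.0118% and 0.0546% (0.0273 to 0.0977%). In mIn1 day 3 and the rpl mutants the interval of the other 8 genes took in their RNA share. In mIn1 day 4, tmC20 day 4 and rps-23(0)/+ the interval of the pair took in its RNA share. In tmC5 day 4 the pair had 0.0482% of RNA and 0.18% (0.0662 to 0.392%) of footprints. In tmC5 day 3 it had 0.0354% and 0.0164% (0.000415 to 0.0913%), with the RNA share inside the interval. In rps-23(0)/+ the other 8 genes had 0.192% of RNA and 0.0542% (0.00656 to 0.196%) of footprints, where the interval took in the RNA share. RNA and footprint libraries differ in how reads were made and counted, so the shares are set side by side and the difference was not tested.

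**Figure D4:**
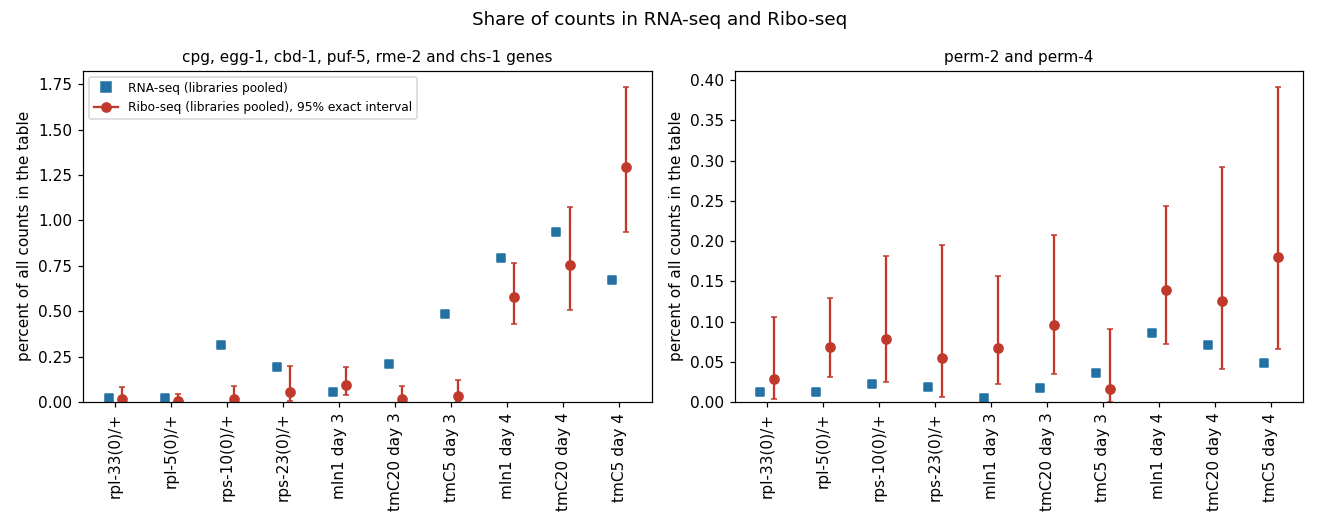
Share of all counts (percent) taken by the 8 genes other than the perm pair (left) and by perm-2 and perm-4 (right) in RNA-seq (blue squares) and Ribo-seq (red points with 95% exact intervals), libraries pooled by group. In rps-10(0)/+ the 8 genes hold 0.311% of RNA and 0.0156% of footprint counts, and the RNA squares of rpl-33(0)/+ and rpl-5(0)/+ are the same libraries.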

How the data were processed

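RNA was made from whole worms with a SMARTer stranded kit and footprints with a small RNA kit with molecular identifiers. The values are raw counts of reads per gene that the authors made with the RiboFlow pipeline on WBcel235 transcripts and deposited as 1 table for each assay. Identifiers were collapsed for the footprints only. 6 Ribo-seq columns that repeat others were not used. RNA counts were filtered with filterByExpr, scaled by TMM and fitted in edgeR 4.0.16 (R 4.3.3) with 1 coefficient per group of the 17 distinct libraries (7 residual degrees of freedom), and each mutant was set against the day 3 and day 4 controls of its balancer by the quasi-likelihood test, with Benjamini-Hochberg adjustment over all genes tested and a threshold of 0.05. CPM are TMM-scaled. DESeq2 1.42.0 served as an alternative. The fit was also run on simulated counts, drawn with its own estimate of the spread and with changes in the rpl libraries only. These counts held no split like that of the tmC5 libraries, so the run cannot speak to it. The methods describe the replicates as independent biological ones and the labels only number them, so p-values measure the spread between these libraries. Footprints were too few for a model. The members and gene lists were chosen with earlier results of these data known. The text names the 10 genes, the 5 genes closest to their mean profile, and the most abundant member of a list, with the exceptions stated. Depth was 1017787 to 2384186 counts per RNA library and 1081 to 9637 per Ribo-seq library. Replicate numbers did not pair the samples.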

Additional observations from a re-analysis of the deposited data

Results flagged for a closer look

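Without the tmC5 and rps-23 libraries, 8 of the 10 genes differed between rps-10(0)/+ and the rpl libraries in their change against day 4 wild type, by a test of that difference itself (edgeR's quasi-likelihood test, Benjamini-Hochberg adjusted p between 0.0045 and 0.023, 9331 genes). The change in rps-10(0)/+ minus the change in the rpl libraries, on the log2 scale, was 3.58 for cpg-1, 3.00 for cpg-2, 3.66 for cpg-3, 3.18 for egg-1, 3.47 for cbd-1, 3.68 for puf-5, 3.65 for rme-2 and 2.45 for chs-1. With all libraries 0 of the 10 passed the corresponding test. The tmC20 control had 1 library on day 4, and its balancer differs from that of the rpl libraries, so balancer and allele cannot be told apart.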

How the results depend on the processing

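Numbers of the 10 genes called in either direction are given. The share of all genes called in either direction stands beside the main fit and the fit without the tmC5 and rps-23 libraries. For the other fits, here and above, it is not given, so their counts are not read as particular to these genes. For the rpl libraries against mIn1 day 4 (3, beside 11.1% of all genes) it was 8 with library totals and 8 with the DESeq2 Wald test. It was 10 with a separate fit per mutant and 0 with both control ages as 1 group. With the tmC20 column of both days as day 3 it was 8, and with it as day 4 it was 0. Without the tmC5 and rps-23 libraries, a fit chosen after seeing the data, it was 10, beside 45.8% of all genes. Against mIn1 day 3 (0, beside 0.648%) it was 1 with the separate fit and 2 without the tmC5 and rps-23 libraries (7.16% of all genes). For rps-10(0)/+ against tmC20 the fit without the tmC5 and rps-23 libraries gave 9 for day 4 (22.8% of all genes). The separate fit there had 1 tmC20 library per group, so its spread came from the rps-10(0)/+ libraries alone and its calls are not given. For day 4 against day 3 in mIn1 (0, beside 0.0531%) DESeq2 gave 4 and the separate fit 10. The fit without the tmC5 and rps-23 libraries gave 10 (40.8% of all genes). In tmC20 (0, beside 0%) the fit without the tmC5 and rps-23 libraries gave 9 (18.9% of all genes). For the mean mutant against day 4 (8, beside 23.7%) a minimum of 10 counts gave 5, both ages as 1 group 0, and the tmC20 column as day 4 0. Leaving out 1 library at a time gave 0 to 8 for the rpl libraries against mIn1 day 4, 0 to 10 for the mean mutant against day 4, 0 to 10 for the ages of mIn1 and 0 to 10 for the mean of the ages. The highest counts came without a tmC5 library.

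The replicate block could be fitted on numbered columns only and gave 0 calls in each of 6 comparisons, as the same columns did without it; correlations of same-numbered libraries ran from -0.0387 to 0.0496. Library totals in place of TMM moved the median of all genes to -0.28 for the rpl libraries against day 4 and -0.21 against day 3, with the 10 genes at a median of -5.29 and -1.71. Of 2076 single-gene values under the alternatives, 1749 kept their direction and their side of the threshold, 170 gained a call, 130 lost it and 27 turned direction, all 27 uncalled. For the rpl libraries against mIn1 day 3, numbered columns with the replicate block gave log2 differences of 1.09 for cpg-1, 1.00 for cpg-2, 0.076 for cpg-3, 0.54 for egg-1, 0.17 for puf-5, 0.30 for rme-2 and 0.39 for chs-1. The same columns without the block gave 0.53 for cpg-1, 0.57 for cpg-2, 0.069 for egg-1 and 0.0017 for chs-1. Leaving out 1 library at a time gave -2.27 to 0.53 for cpg-1, -1.60 to 0.57 for cpg-2, -2.36 to 0.069 for egg-1 and -1.67 to 0.00025 for chs-1, the highest value of each without the second mIn1 day 3 library. With both control ages as 1 group, perm-2 was at -1.39 and perm-4 at -1.79. In that fit rps-10(0)/+ was below tmC20 at -0.52 for cpg-1, -0.46 for cpg-2, -0.97 for cpg-3, -0.92 for egg-1, -0.40 for cbd-1, -0.83 for perm-2, -0.50 for perm-4, -0.97 for puf-5, -0.67 for rme-2 and -0.51 for chs-1, against positive values for day 3 alone. In 4 comparisons whose single-gene values are not given here (rps-23(0)/+ against either tmC5 age, the tmC5 ages, and the mean mutant against day 3), 72 of 1038 values turned direction and 0 of them were called. Footprint depth was low: many genes had 0 or 1 count in a library.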
